A study of Homo sapiens with 4 samples.

Results

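Cholesterol synthesis, uptake and their control by the SREBP transcription factors were followed through 31 genes in U87, an established human glioblastoma cell line. The 31 genes were chosen by symbol, and rows for all 31 were found in both expression tables, which hold 18899 genes for the wild-type (WT) cells and 57169 for the shRNA cells. They comprised 8 mevalonate and isoprenoid enzymes, 11 enzymes of the sterol branch, 7 genes of SREBP control and 5 genes of sterol uptake, transport and efflux. They do not cover the whole pathway.

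RNA was sequenced from 1 library in each of 4 groups. These were WT cells in hypoxia (1% O2), WT cells in normoxia, and a hypoxic pair in which ALKBH5 was knocked down by shRNA (shALKBH5) or a scrambled shRNA was used (shScr). The study asked which hypoxia-induced genes depend on ALKBH5, an RNA demethylase that acts on m6A. All cells grew in medium with 10% fetal bovine serum, which carries lipoproteins and their cholesterol. How long hypoxia lasted and which shRNA sequence was used were not found in the labels, and no shScr library in normoxia was analysed here, so a response of the shRNA cells to hypoxia was not measured.

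Cholesterol is built from acetyl-CoA through mevalonate, farnesyl diphosphate, squalene and lanosterol, and several of the late steps consume molecular oxygen. The SREBP precursors are made in the endoplasmic reticulum, where SCAP binds them and the INSIG proteins hold SCAP back when sterols are plentiful. When sterols run low, SCAP carries SREBP to the Golgi, the proteases encoded by MBTPS1 and MBTPS2 cut it, and the freed fragment switches on genes for sterol synthesis and uptake. Glioblastoma cells are known for taking up much of their cholesterol from outside.

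As a check of the labels, ALKBH5 itself stood at 83.5 FPKM in WT hypoxia, 39.6 FPKM in WT normoxia, 113 FPKM with shALKBH5 and 186 FPKM with shScr. The library labelled shALKBH5 thus held 0.608 of the shScr level, a difference short of 2-fold. FPKM divides the fragments of a gene by its length and by the library's size, so levels of different genes can be set side by side within a table. The hypoxia marker gene CA9, a carbonic anhydrase, stood at 321.7 FPKM in WT hypoxia and 1.27 FPKM in WT normoxia. Of the glioblastoma and glial markers, VIM, CD44 and NES were present in every library, from 2.93 FPKM for NES upward, whereas GFAP, S100B, SOX2 and AQP4 were at most 0.229 FPKM and OLIG2 at most 1.35 FPKM. PTPRC and EPCAM were at most 0.28 FPKM. The endothelial marker PECAM1 stood at 2.50 FPKM in WT hypoxia, against 0.69 FPKM in WT normoxia, and its part in the results was not tested. In the shRNA table whole reads could be recovered, 16780154 with shALKBH5 and 17859370 with shScr, of which single members of the 31 held between 38 and 6942. For the WT libraries no depth could be had.

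No difference below has a replicate check, because each group is 1 library. Changes are log2(FPKM + 1) differences, which understate the change of scarce genes. A gene was counted when its mean reached 1 FPKM over the pair of libraries, and it was called higher or lower at a change of at least 2-fold. In the shRNA table the reads also give each log2 ratio a 95% exact binomial (Clopper-Pearson) interval. It lacks the added constant, so it need not hold the stated change, and it covers counting error between these 2 libraries only. In bulk RNA a lower share of expressing cells and less RNA per cell cannot be told apart.

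The promoters of 5 genes are shown because 4 of them, INSIG1, INSIG2, SREBF1 and STARD4, were the members called higher in hypoxia, and SREBF2 is the sister gene of SREBF1. Each is the 250 bases before the RefSeq gene start (GRCh38.p14), read on the strand of the gene. Capitals mark the 10-base sterol regulatory element (found in SREBF2), the NF-Y box CCAAT and the hypoxia response element core ACGTG, on either strand.
INSIG1 (chr7:155297628-155297877, plus strand): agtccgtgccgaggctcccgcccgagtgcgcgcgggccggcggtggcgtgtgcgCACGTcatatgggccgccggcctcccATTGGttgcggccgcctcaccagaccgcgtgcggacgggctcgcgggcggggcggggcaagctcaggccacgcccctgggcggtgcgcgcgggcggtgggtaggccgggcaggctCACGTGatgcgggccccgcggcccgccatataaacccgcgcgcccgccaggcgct
INSIG2 (chr2:118088221-118088470, plus strand): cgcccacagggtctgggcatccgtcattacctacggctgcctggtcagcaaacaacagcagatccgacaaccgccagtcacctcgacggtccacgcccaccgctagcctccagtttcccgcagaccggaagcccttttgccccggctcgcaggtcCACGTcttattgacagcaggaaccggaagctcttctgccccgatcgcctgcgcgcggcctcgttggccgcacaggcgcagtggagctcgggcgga
SREBF1 (chr17:17836987-17837236, minus strand): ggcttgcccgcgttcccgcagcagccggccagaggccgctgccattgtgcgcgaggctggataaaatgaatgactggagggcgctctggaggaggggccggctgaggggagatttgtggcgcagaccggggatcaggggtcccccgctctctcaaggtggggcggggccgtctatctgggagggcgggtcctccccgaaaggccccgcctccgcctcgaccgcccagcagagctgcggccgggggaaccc
SREBF2 (chr22:41832855-41833104, plus strand): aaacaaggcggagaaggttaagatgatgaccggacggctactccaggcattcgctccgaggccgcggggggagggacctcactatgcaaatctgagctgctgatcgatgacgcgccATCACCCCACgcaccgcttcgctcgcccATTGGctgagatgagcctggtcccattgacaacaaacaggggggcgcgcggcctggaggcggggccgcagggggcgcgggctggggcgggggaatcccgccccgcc
STARD4 (chr5:111512536-111512785, minus strand): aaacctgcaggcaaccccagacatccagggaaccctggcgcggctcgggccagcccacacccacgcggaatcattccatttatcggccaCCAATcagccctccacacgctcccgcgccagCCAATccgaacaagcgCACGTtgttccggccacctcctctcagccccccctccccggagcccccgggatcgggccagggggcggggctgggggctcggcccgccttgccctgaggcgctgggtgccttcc

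In the INSIG1 window the core ACGTG stood from 196 to 192 bases before the start, and again as the palindrome CACGTG at 55 to 50 bases, where it matches on both strands. The INSIG2 window held the core at 95 to 91 bases before the start and the STARD4 window at 114 to 110 bases. Neither SREBF window held ACGTG, and other spellings of the core were not searched. The sterol regulatory element was found in the SREBF2 window, 134 to 125 bases before the start, with an inverted NF-Y box at 106 to 102 bases. A match is a run of letters, and binding was not measured here.

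RefSeq promoters could be matched for 28 of the 31 genes. A gene was counted when any of its RefSeq windows held the motif, for the members and for all genes alike. DHCR7 and GGPS1 had their NF-Y and Sp1 boxes outside the window nearest the gene start. The NF-Y box, bound by a factor known to act with SREBP, was found in 19 of 28, against 37.0% of 27305 genes with such a window and 41.6% of the 7897 among them past the filter in the shRNA table. The hypoxia core ACGTG was found in 7 of 28, against 21.7% of all genes and 30.5% of those past the filter. The 10-base sterol element was found in SREBF2 and in 0.0439% of all genes. Its looser core TCACNCCAC, which overlaps it, was again found in SREBF2 alone among the 28, and in 1.09% of all genes. The Sp1 box GGGCGG was found in 25 of 28, against 46.2% of all genes and 76.6% of those past the filter. The LXR-type direct repeat, AGGTCA written again after 4 bases of any kind, was found in 0 of 28 genes and in 0.0183% of all genes.

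**Figure D1:**
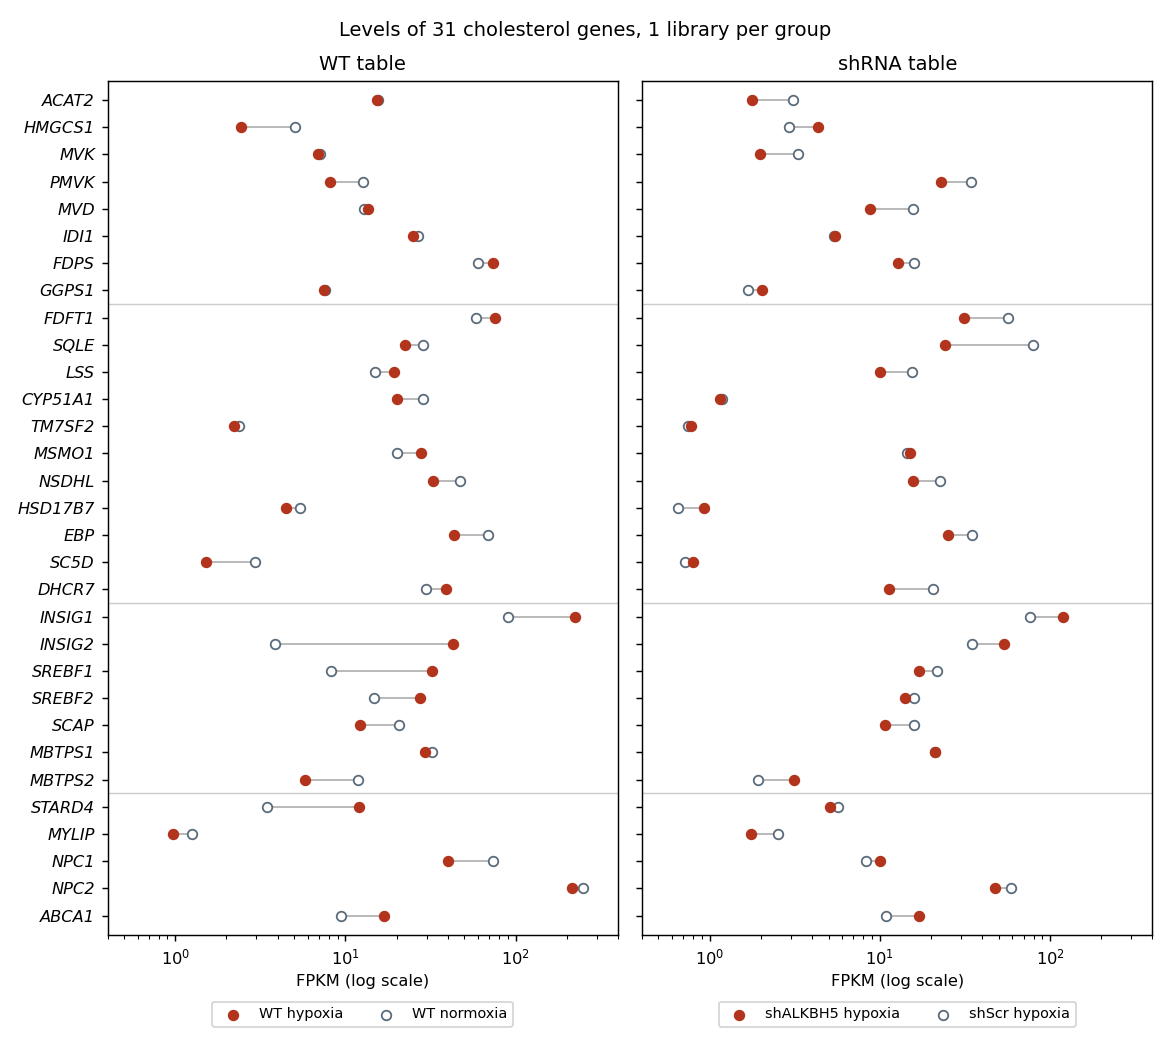
FPKM of the 31 genes on a log axis, with the WT table on the left and the shRNA table on the right, and grey lines that part the 4 roles. Filled points are WT hypoxia or shALKBH5 and open points WT normoxia or shScr; the widest gap is that of INSIG2, at 43.1 FPKM in WT hypoxia and 3.85 FPKM in WT normoxia.

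The first comparison set WT hypoxia against WT normoxia. Of the 7 genes that control SREBP, INSIG2, SREBF1 and INSIG1 were called higher in hypoxia and none lower, and 3 of the 7 had a change below 0 (2 when centred on the median gene). The sterol carrier gene STARD4 was also higher, and on the deposited scale no enzyme passed the rule in either direction. All 31 passed the filter, and a 2-fold higher level was found for 4 of them, where 7.41% of 11050 genes had one. None of the 31 was at least 2-fold lower, where 14.7% of all genes were. Their median log2 change was -0.07, against -0.35 for all genes, and 22 of 31 lay above the median gene. Centred on the median gene, 6 of the 31 were higher, with ABCA1 (1.13) and SREBF2 (1.19) added, and none of the 31 lower, while 11.9% of all genes were higher and 5.73% lower.

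INSIG2 encodes a retention factor that holds SCAP back (ENSG00000125629, GRCh38 chromosome 2, 118088452 to 118110997, plus strand). It stood at 43.1 FPKM in WT hypoxia and 3.85 FPKM in WT normoxia, a ratio of 11.2 and a log2 change of 3.18, above that of 99.4% of all genes. INSIG1, a textbook SREBP target that feeds back on SREBP (ENSG00000186480, chromosome 7, 155297776 to 155310235, plus strand), stood at 223 FPKM in WT hypoxia and 90.0 FPKM in WT normoxia, a change of 1.30. Both retention factors were thus higher in hypoxia, at very different levels. INSIG1 was the more abundant, at 5.18 times the INSIG2 level in WT hypoxia and 23.4 times in WT normoxia.

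SREBF1 encodes SREBP-1, known mainly for fatty acid synthesis genes (ENSG00000072310, chromosome 17, 17810399 to 17837002, minus strand). Its level was 32.1 FPKM in WT hypoxia and 8.27 FPKM in WT normoxia, a change of 1.83. SREBF2, which encodes the cholesterol-directed SREBP-2, stood at 27.3 FPKM in WT hypoxia and 14.8 FPKM in WT normoxia, a change of 0.84 that missed the rule. The order of the pair differed between the libraries, with SREBF1 at 1.17 times SREBF2 in WT hypoxia and 0.560 times in WT normoxia. The escort gene SCAP and the protease gene MBTPS2 lay on the other side. SCAP had 12.1 FPKM in WT hypoxia and 20.7 FPKM in WT normoxia, a change of -0.72, and MBTPS2, the second Golgi protease, had 5.82 FPKM in WT hypoxia and 11.9 FPKM in WT normoxia, a change of -0.92 as deposited. MBTPS1, the first protease, had 29.2 FPKM in WT hypoxia and 32.4 FPKM in WT normoxia (-0.15), and turned to 0.20 when centred on the median gene. MBTPS2 and the enzyme gene HMGCS1 passed the rule as lower in TPM, at -1.06 and -1.01, and with a constant of 0.1 FPKM.

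STARD4, a carrier that moves sterol between membranes (ENSG00000164211, chromosome 5, 111496033 to 111512590, minus strand), stood at 12.0 FPKM in WT hypoxia and 3.48 FPKM in WT normoxia, a change of 1.53. ABCA1, which exports cholesterol from the cell, had 17.0 FPKM in WT hypoxia and 9.46 FPKM in WT normoxia, a change of 0.78. The lysosomal exporter gene NPC1 lay the other way, at 40.2 FPKM in WT hypoxia and 73.2 FPKM in WT normoxia, a change of -0.85. Its soluble partner NPC2 was far more abundant, at 214 FPKM in WT hypoxia and 249 FPKM in WT normoxia, with a change of -0.22. MYLIP, the ligase that marks lipoprotein receptors for breakdown, was scarce, at 0.970 FPKM in WT hypoxia and 1.25 FPKM in WT normoxia (-0.19).

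The 19 enzymes differed little between the WT libraries, with changes between -0.82 and 0.44 and a median of -0.07. Among the mevalonate enzymes, HMGCS1, which makes the HMG-CoA precursor, had the lowest value, at 2.44 FPKM in WT hypoxia and 5.07 FPKM in WT normoxia, a change of -0.82. PMVK, the phosphomevalonate kinase, had 8.08 FPKM in WT hypoxia and 12.6 FPKM in WT normoxia, a change of -0.58. FDPS, which makes farnesyl diphosphate, had 73.9 FPKM in WT hypoxia and 60.4 FPKM in WT normoxia, a change of 0.29. The other 5 lay between -0.11 and 0.06. IDI1, which isomerises the isoprenoid units, had 24.8 FPKM in WT hypoxia and 26.9 FPKM in WT normoxia, and ACAT2, which starts the pathway, had 15.3 FPKM in WT hypoxia and 15.6 FPKM in WT normoxia. MVD, the mevalonate decarboxylase, had 13.5 FPKM in WT hypoxia and 12.9 FPKM in WT normoxia. MVK, the mevalonate kinase, had 6.92 FPKM in WT hypoxia and 7.07 FPKM in WT normoxia, and GGPS1, which makes geranylgeranyl diphosphate, had 7.53 FPKM in WT hypoxia and 7.60 FPKM in WT normoxia. These 5 were thus close to equal, and their signs turned with the scale.

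Of the 11 sterol branch enzymes, 4 were above 0 in hypoxia and 7 below as deposited, against 7 above and 4 below when centred on the median gene, none by 2-fold. FDFT1, the squalene synthase, had 76.1 FPKM in WT hypoxia and 58.6 FPKM in WT normoxia, a change of 0.37, and LSS, which closes the ring to lanosterol, had 19.2 FPKM in WT hypoxia and 14.9 FPKM in WT normoxia, a change of 0.34. The last reductase DHCR7 had 39.1 FPKM in WT hypoxia and 29.8 FPKM in WT normoxia, a change of 0.38. Lower in hypoxia on either scale, by less than 2-fold, were EBP, a sterol isomerase, at 43.6 FPKM in WT hypoxia and 68.4 FPKM in WT normoxia (-0.64), and NSDHL, a sterol dehydrogenase, at 32.8 FPKM in WT hypoxia and 46.8 FPKM in WT normoxia (-0.50). Both further sterol reductase genes were scarce. TM7SF2 had 2.20 FPKM in WT hypoxia and 2.37 FPKM in WT normoxia (-0.07), and HSD17B7 had 4.47 FPKM in WT hypoxia and 5.39 FPKM in WT normoxia (-0.22).

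Oxygen is a substrate of the enzymes from SQLE, CYP51A1, MSMO1 and SC5D, and these went in both directions. SQLE, which oxidises squalene, had 22.5 FPKM in WT hypoxia and 28.6 FPKM in WT normoxia, a change of -0.34. CYP51A1, the lanosterol demethylase, had 20.1 FPKM in WT hypoxia and 28.4 FPKM in WT normoxia (-0.48). SC5D, a sterol desaturase, had 1.52 FPKM in WT hypoxia and 2.96 FPKM in WT normoxia (-0.65). MSMO1, the methylsterol oxidase, had 27.7 FPKM in WT hypoxia and 20.2 FPKM in WT normoxia (0.44). Relative to the median gene SQLE was at 0.02, so its direction turned with the scale, as did that of 10 other members.

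Summed by role, the 7 control genes held 372.7 FPKM (0.0710% of the library) in WT hypoxia and 182 FPKM (0.0373%) in WT normoxia. Without INSIG1 the sums were 149.6 FPKM in WT hypoxia and 91.9 FPKM in WT normoxia. The 19 enzymes held 441.7 FPKM (0.0842%) in WT hypoxia and 454.4 FPKM (0.0930%) in WT normoxia. The control genes thus took up more of the hypoxic library while the enzymes did not. Of the called members INSIG1 (1.30) lay nearest to the 2-fold rule, with STARD4 (1.53) and SREBF1 (1.83) further inside. Nearest outside it were MBTPS2 (-0.92), NPC1 (-0.85) and SREBF2 (0.84).

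**Figure D2:**
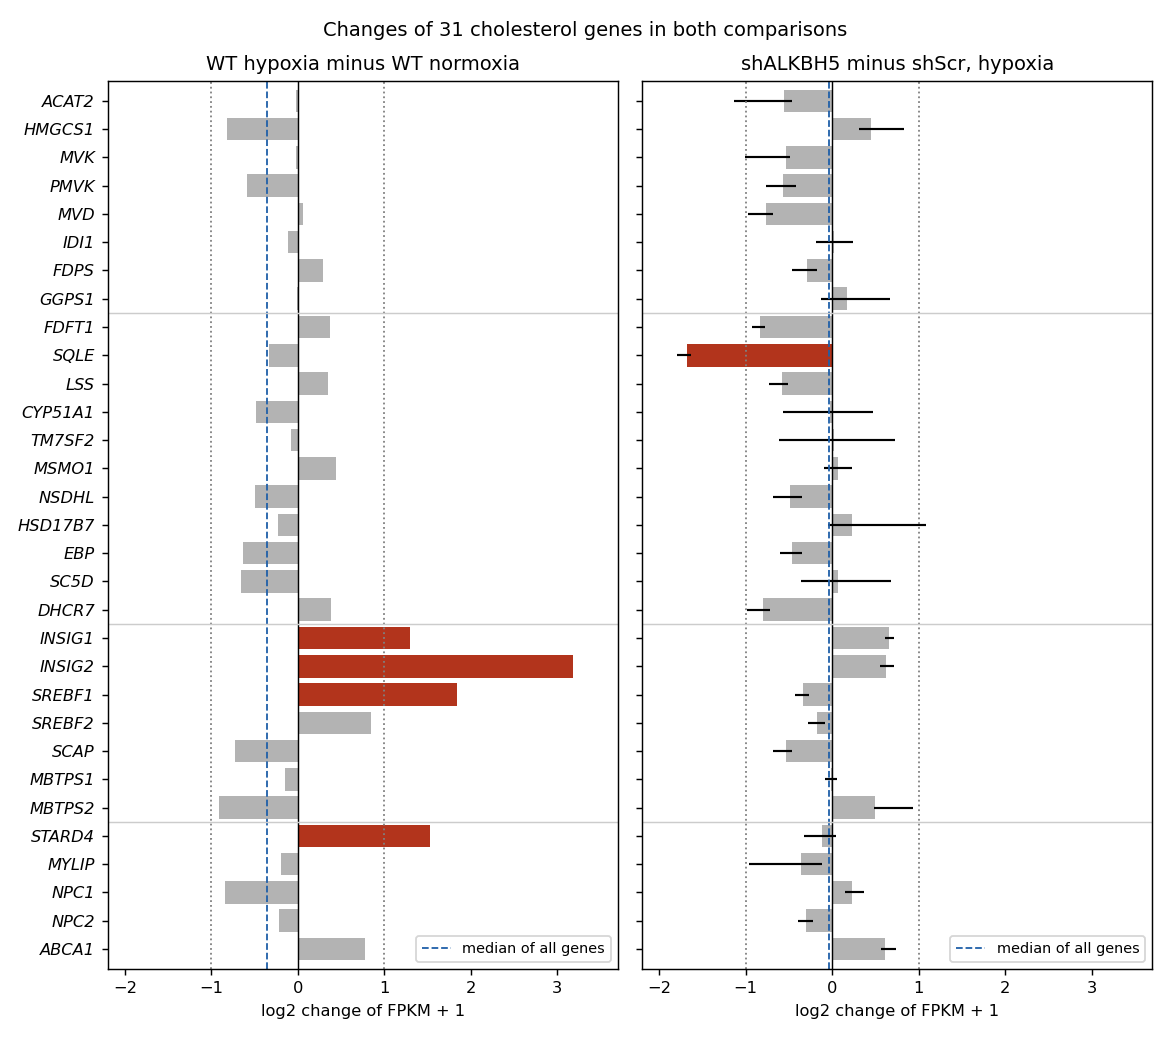
Log2 change of FPKM + 1 for each gene, WT hypoxia minus WT normoxia on the left and shALKBH5 minus shScr on the right. Red bars passed the 2-fold rule (dotted lines), the dashed line is the median of all genes, and black lines are 95% counting intervals of the read ratio; INSIG2 (3.18) leads on the left and SQLE (-1.67) on the right.

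The second comparison set shALKBH5 against shScr, both in hypoxia. ALKBH5 itself had a log2 change of -0.71, and 8.41% of all genes had a lower one. Its change was -0.68 when centred on the median gene, -0.53 when scaled to all recovered reads and -0.46 in TPM. The target was thus not called as deposited or on any of these scales. SQLE was the member called, lower with shALKBH5. Of the 16 enzymes past the filter 12 lay below 0, SQLE among them, and of all genes 5797 of 10925 did. Centred on the median gene, 11 of the 16 enzymes lay below 0. In TPM, where all 19 enzymes passed the filter, 11 lay below 0 and 8 above, and the count for all genes in TPM is not given. INSIG1, INSIG2 and ABCA1 lay above their shScr level by less than 2-fold. Of the 28 genes past the filter, 1 was at least 2-fold lower, where 3.0% of 10925 genes were, and 0 were higher, where 1.76% were. Centred on the median gene the members' counts were the same, where 2.62% of all genes were lower and 1.99% higher. The share of calls was thus near that of all genes. The median log2 change of the 28 was -0.30, against -0.04 for all genes. The members' median depended on scale and filter, at -0.13 when scaled to all recovered reads and -0.175 without a filter. It was 0.07 in TPM, where all 31 passed the filter. Total reads and TPM also moved genes in general up, by 0.18 and 0.26 before the constant was added. The median of all genes on those scales is not given. Centred on the median gene, the members' median was -0.26, against 0 for all genes. The 3 genes under the filter had 70 reads or fewer in either library. TM7SF2 had 0.777 FPKM with shALKBH5 and 0.750 FPKM with shScr, HSD17B7 0.924 FPKM with shALKBH5 and 0.648 FPKM with shScr, and SC5D 0.794 FPKM with shALKBH5 and 0.713 FPKM with shScr.

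SQLE (ENSG00000104549, chromosome 8, 124998497 to 125022283, plus strand) stood at 24.2 FPKM (1650 reads) with shALKBH5 and 79.4 FPKM (5080 reads) with shScr. Its log2 change was -1.67, with an interval from -1.80 to -1.63, and 0.494% of all genes had a lower one. It stayed past the rule in TPM (-1.45) and with total reads (-1.49). SQLE was the most abundant of the 31 with shScr and stood at rank 6 with shALKBH5.

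After SQLE, the members furthest below shScr were FDFT1, DHCR7 and MVD. FDFT1 had 31.3 FPKM (2579 reads) with shALKBH5 and 56.5 FPKM (4367 reads) with shScr, a change of -0.83 with an interval from -0.92 to -0.78. DHCR7 had 11.3 FPKM with shALKBH5 and 20.4 FPKM with shScr, a change of -0.80 with an interval from -0.99 to -0.72. MVD had 8.77 FPKM with shALKBH5 and 15.6 FPKM with shScr, a change of -0.76 with an interval from -0.97 to -0.69. These 3 lay nearest outside the rule.

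LSS followed at 10.0 FPKM with shALKBH5 and 15.5 FPKM with shScr (-0.58), and PMVK at 22.9 FPKM with shALKBH5 and 34.5 FPKM with shScr (-0.57). ACAT2 had 1.78 FPKM with shALKBH5 and 3.08 FPKM with shScr (-0.56), and MVK 1.97 FPKM with shALKBH5 and 3.29 FPKM with shScr (-0.53). Also below shScr were NSDHL at 15.7 FPKM with shALKBH5 and 22.5 FPKM with shScr (-0.49) and EBP at 25.1 FPKM with shALKBH5 and 34.9 FPKM with shScr (-0.46). FDPS had 12.8 FPKM with shALKBH5 and 15.9 FPKM with shScr (-0.30). For SQLE and these 10 enzymes the whole counting interval lay below 0, and for 10 of the 11 it still did with total reads and in TPM.

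For the other 8 enzymes the interval did not lie below 0. HMGCS1 had 4.33 FPKM (323 reads) with shALKBH5 and 2.92 FPKM (204 reads) with shScr, a change of 0.44 with an interval from 0.31 to 0.83, the single enzyme whose interval lay above 0 as deposited. MSMO1 had 15.1 FPKM with shALKBH5 and 14.4 FPKM with shScr, and IDI1 had 5.47 FPKM with shALKBH5 and 5.39 FPKM with shScr. GGPS1 had 2.02 FPKM with shALKBH5 and 1.68 FPKM with shScr, and CYP51A1 1.14 FPKM with shALKBH5 and 1.18 FPKM with shScr. The intervals of MSMO1, IDI1 and GGPS1 held 0, as did those of CYP51A1 and of the 3 scarce genes. With total reads 4 enzymes had an interval above 0, and in TPM 5.

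Of the control genes, INSIG1 had 120.0 FPKM (6942 reads) with shALKBH5 and 75.8 FPKM (4113 reads) with shScr, a change of 0.66 with an interval from 0.61 to 0.72. INSIG2 had 54.0 FPKM (3382 reads) with shALKBH5 and 34.9 FPKM (2048 reads) with shScr, a change of 0.62 with an interval from 0.55 to 0.71. The ratio of INSIG1 to INSIG2 was accordingly alike, at 2.22 with shALKBH5 and 2.17 with shScr. MBTPS2 had 3.12 FPKM with shALKBH5 and 1.91 FPKM with shScr (0.50).

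SCAP lay below shScr, at 10.7 FPKM with shALKBH5 and 15.9 FPKM with shScr (-0.54). SREBF1 had 16.9 FPKM with shALKBH5 and 21.6 FPKM with shScr (-0.33), and SREBF2 14.0 FPKM with shALKBH5 and 16.0 FPKM with shScr (-0.175). As deposited, the escort and the SREBF genes were slightly lower and the retention factors higher. With total reads SCAP was at -0.36, SREBF1 at -0.16 and SREBF2 at -0.004. In TPM they were at -0.31, -0.09 and 0.07, so the sign of SREBF2 turned. MBTPS1 was at 21.0 FPKM with shALKBH5 and 21.2 FPKM with shScr, and its change turned to 0.16 with total reads and 0.24 in TPM.

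Among the transport genes, ABCA1 had 16.9 FPKM (3047 reads) with shALKBH5 and 10.8 FPKM (1822 reads) with shScr, a change of 0.60 with an interval from 0.56 to 0.73. NPC1 had 9.96 FPKM with shALKBH5 and 8.35 FPKM with shScr (0.23), and NPC2 47.6 FPKM with shALKBH5 and 59.0 FPKM with shScr (-0.30). STARD4 was close to equal, at 5.13 FPKM with shALKBH5 and 5.66 FPKM with shScr, and MYLIP had 1.75 FPKM with shALKBH5 and 2.53 FPKM with shScr (-0.36). Together, the 19 enzymes held 196 FPKM (0.0672% of the library) with shALKBH5 and 329 FPKM (0.0941%) with shScr. Without SQLE the sums were 172 FPKM with shALKBH5 and 249.8 FPKM with shScr. The 7 control genes held 239.8 FPKM (0.0821%) with shALKBH5 and 187 FPKM (0.0536%) with shScr. Without INSIG1 they held 119.78 FPKM (0.041%) with shALKBH5 and 111.55 FPKM (0.0319%) with shScr.

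**Figure D3:**
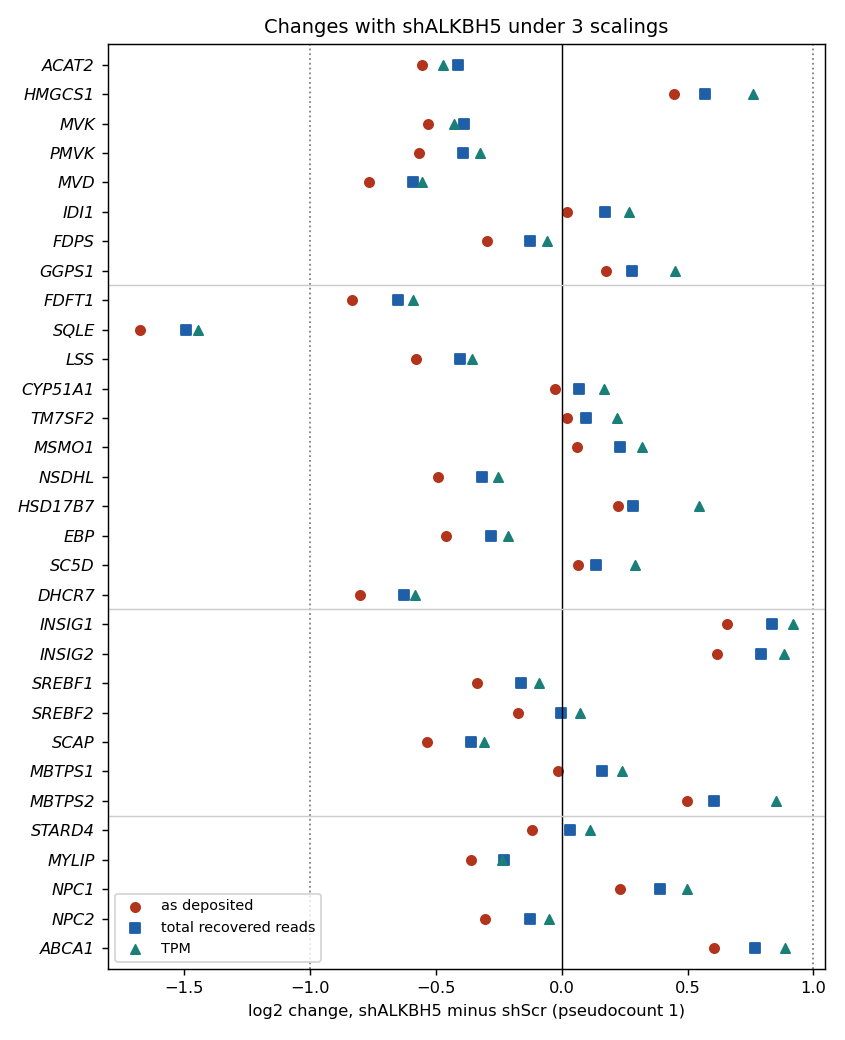
Log2 change of each gene, shALKBH5 minus shScr, with the FPKM as deposited (circles), scaled to all recovered reads (squares) and in TPM (triangles), all with a pseudocount of 1. Scaling to total reads moved genes up by 0.18 and TPM by 0.26 before the constant was added; SQLE stayed below -1 under all 3, and INSIG1, INSIG2 and ABCA1 above 0.

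The comparisons share no library, so their values can be set side by side. Of the 28 genes past both filters, 8 had a positive change in hypoxia and a negative one with shALKBH5, namely MVD, FDPS, FDFT1, LSS, DHCR7, SREBF1, SREBF2 and STARD4. INSIG1, INSIG2, ABCA1 and MSMO1 were positive in both, 11 were negative in both, and HMGCS1, IDI1, GGPS1, MBTPS2 and NPC1 were negative in hypoxia and positive with shALKBH5. The members furthest from 0 differed, with SQLE at -1.67 with shALKBH5 and -0.34 in hypoxia, and INSIG2 at 0.62 with shALKBH5 and 3.18 in hypoxia. Under the scales tried the sign turned for 11 of 31 genes in hypoxia and 4 of 31 with shALKBH5, so this sorting holds for the deposited scale. Of all genes past the filter, 3402 of 11050 lay above 0 in hypoxia and 5128 of 10925 with shALKBH5. How all genes sort over both comparisons was not counted. Whether the members sort otherwise than all genes was therefore not tested.

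**Figure D4:**
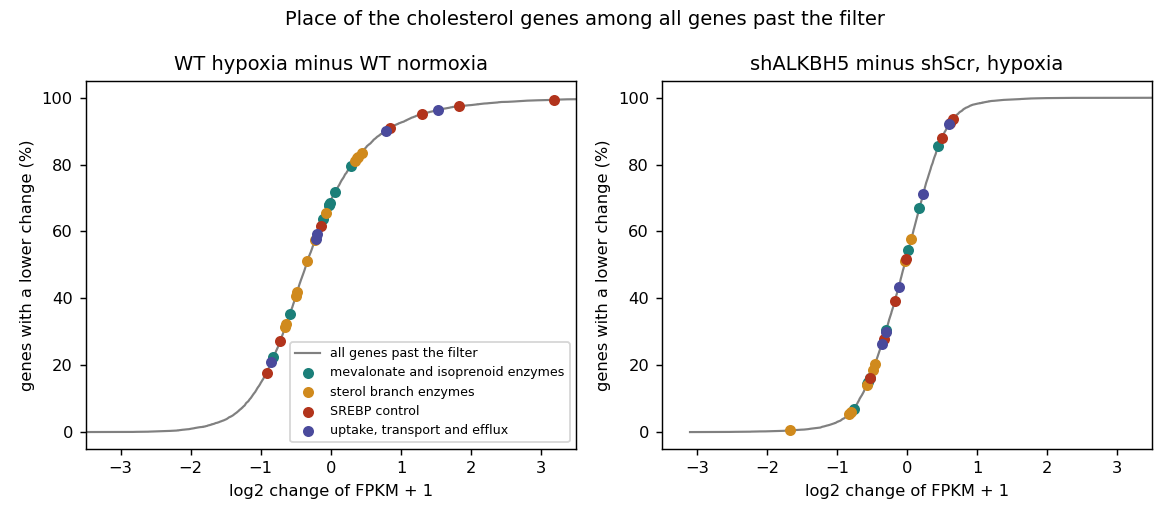
Share of all genes past the filter with a lower log2 change (vertical axis, %) against the log2 change itself, for WT hypoxia minus WT normoxia (left) and shALKBH5 minus shScr (right). Grey lines are all genes and points the cholesterol genes by role; control genes reach 99.4% on the left (INSIG2), and SQLE lies at 0.494% on the right.

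Some levels in the shRNA table rest on genes that share sequence with others. The deposited gene length of each of the 31 equalled the union of its GENCODE 29 exons, and 16 of them shared exonic bases with another gene. The shared part was 83.2% for CYP51A1, 52.3% for ACAT2 and 41.0% for GGPS1, and at most 18.6% for the rest. CYP51A1 had 65 reads with shALKBH5 and 63 with shScr. Across the tables, which may have been normalised separately, the CYP51A1 level was 1.18 FPKM with shScr and 20.1 FPKM in WT hypoxia. That is a log2 difference of -3.27, where the median gene had -0.73. ACAT2 (-1.995) and GGPS1 (-1.67) also lay below that median, as did 16 of the 31 in all. Among these were FDPS (-2.15) and NPC1 (-2.14), which share 18.6% and 5.98% of their bases, and HSD17B7 (-1.73) and INSIG1 (-1.54), which share none. PMVK (1.97) and SQLE (1.78) lay furthest above it. The SQLE level was 79.4 FPKM with shScr, 22.5 FPKM in WT hypoxia and 24.2 FPKM with shALKBH5. The partner sharing the most bases lies on the same strand for CYP51A1 (AC000120.2) and GGPS1 (TBCE). For ACAT2 it lies on the opposite strand (SOD2-OT1). No source gives the counter or states whether strand was used, so the reads of the overlapping genes are of uncertain source. FDPS, CYP51A1 and HSD17B7 also have 13 pseudogenes named after them, listed at no more than 0.224 FPKM.

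Genes around the pathway were followed in 6 further lists. In the fatty acid arm of SREBP, 1 of 9 measured genes was higher in hypoxia, where 7.41% of all genes were, and 0 of 9 lower, where 14.7% were. Their median was -0.02. It was SCD, the fatty acid desaturase, at 439 FPKM in WT hypoxia and 35.4 FPKM in WT normoxia, a change of 3.60. FADS2, another desaturase, was at 0.96, or 1.31 relative to the median gene, ELOVL6, an elongase, at -0.93 (-1.07 and past the rule in TPM) and the carboxylase ACACA at -0.67. With shALKBH5, 1 of 9 was lower, where 3.0% of all genes were, and 0 of 9 higher, where 1.76% were. The median of the 9 was -0.26. Below 0 lay 8 of 9 as deposited and 7 of 9 when centred, but 5 of 9 with total reads and in TPM. The called gene was the fatty acid synthase gene FASN, at 8.53 FPKM (1266 reads) with shALKBH5 and 31.2 FPKM (4346 reads) with shScr, a change of -1.76 with an interval from -1.96 to -1.78. SCD, at 232.5 FPKM with shALKBH5 and 464.8 FPKM with shScr, lay just short of the rule with a change of -0.996, and FADS2 (-0.53) and ACSS2 (-0.52) followed.

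Of 5 genes of lipoprotein receptors and their helpers, 3 were higher in hypoxia, where 7.41% of all genes were. The 1 lower gene stands beside 14.7% of all genes, and the median of the 5 was 1.13. VLDLR, a lipoprotein receptor gene, had 46.7 FPKM in WT hypoxia and 6.95 FPKM in WT normoxia (2.58), LRP1 35.9 FPKM in WT hypoxia and 10.3 FPKM in WT normoxia (1.70), and SCARB1, the HDL receptor gene, 29.8 FPKM in WT hypoxia and 13.1 FPKM in WT normoxia (1.13). LRP8 was lower, at 1.13 FPKM in WT hypoxia and 7.48 FPKM in WT normoxia (-1.99). With shALKBH5 none of the 5 was called, where 1.76% of all genes were higher and 3.0% lower, and the median was 0.02. VLDLR was at 0.58, LRPAP1, a receptor chaperone, at -0.37, SCARB1 at -0.33 and LRP8 at 0.27.

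Of the genes of sterol-regulated breakdown in the endoplasmic reticulum, 3 were measured. In hypoxia none of these 3 was called as deposited, where 7.41% of all genes were higher and 14.7% lower. ERLIN2 was at -0.93, ERLIN1 at -0.76 and the ligase gene RNF139 at -0.06, with a median of -0.76. In TPM ERLIN2 passed the rule as lower, at -1.06. With shALKBH5, 1 of the 3 was higher, where 1.76% of all genes were, and 0 lower, where 3.0% were. It was ERLIN2, at 8.69 FPKM (1297 reads) with shALKBH5 and 3.56 FPKM (498 reads) with shScr. Its change was 1.09, with an interval from 1.14 to 1.44. ERLIN1 was at 0.25 and RNF139 at -0.07, and the median was 0.25.

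Sterol transport genes had 1 of 7 lower in hypoxia, where 14.7% of all genes were, and a median of -0.23. With shALKBH5, 1 of 5 was lower, where 3.0% of all genes were, and the median was 0.20. In hypoxia the lower gene was TMEM97, a regulator of NPC1 protein, at 2.66 FPKM in WT hypoxia and 21.2 FPKM in WT normoxia (-2.60). OSBPL11 (-0.82), GRAMD1A (0.53) and OSBPL9 (-0.48) came after it. With shALKBH5 the lower gene was STARD3, a late endosomal sterol binder, at 6.68 FPKM with shALKBH5 and 14.5 FPKM with shScr (-1.01). Its change fell short of 2-fold on the other scales, at -0.97 relative to the median gene, -0.84 scaled to all reads and -0.83 as TPM. GRAMD1A (-0.64), OSBPL9 (0.33) and OSBPL11 (0.32) were next.

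Isoprenoid-using enzymes had 1 of 8 lower in hypoxia, near the 14.7% of all genes. It was PDSS1 of ubiquinone synthesis, at 2.22 FPKM in WT hypoxia and 7.24 FPKM in WT normoxia (-1.36), and the list's median was -0.51. COQ2 (-0.90, or -1.02 and past the rule in TPM), DHDDS (-0.81) and NUS1 (-0.54) followed. With shALKBH5 none of the 6 measured was called, where 1.76% of all genes were higher and 3.0% lower. The median was 0.16, and DHDDS (0.46), NUS1 (0.35), COQ2 (-0.34) and FNTA (0.33) lay furthest from 0. Of the LXR, oxysterol and ester genes, 5 of 10 passed the filter in each table. In hypoxia 1 of the 5 was higher, where 7.41% of all genes were, and 0 lower, where 14.7% were. It was CH25H, which makes an oxysterol, at 3.21 FPKM in WT hypoxia and 1.09 FPKM in WT normoxia. Its change of 1.01 lay just past the rule. SOAT1 (-0.77), NR1H3 (-0.67) and NR1H2 (0.51) came next, and the median was -0.02. With shALKBH5 none of the 5 was called, where 1.76% of all genes were higher and 3.0% lower, and the median was -0.39. SOAT2 (-0.60), SOAT1 (-0.39), LPCAT3 (-0.39) and NR1H2 (-0.30) lay furthest from 0. SOAT2 rested on 20 reads with shALKBH5 and 44 with shScr, and fell below the filter when scaled to all recovered reads.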

How the data were processed

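RNA-seq was made from U87 cells in 4 groups of 1 library each. The authors deposited FPKM values in 2 tables, named as such in the deposited workbook. The tables were used separately because they may have been normalised separately. The submitters' processing notes name hg19, but 58724 of 58735 rows of the shRNA table had the gene start and end of GENCODE 29, so its coordinates are given as GRCh38. No source used here gives the aligner, the counter or whether strand was used.

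Of the WT rows, 65 were left out, 12 with a date and 53 with a number for a symbol. Where rows of the shRNA table shared a symbol, the one with the highest mean was kept. Multiplying FPKM by gene length gave whole reads, within 0.01 read, for 100.0% of values. The deposited divisor was 94.5% of those reads with shALKBH5 and 83.2% with shScr. The WT table has no lengths, and its depth is unknown.

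Changes were log2(FPKM + 1), filtered at a mean of 1 FPKM and called at 2-fold. With 1 library per group there was no test. All 31 genes are named, with up to 4 of each further list by size of change. The genes, lists and rules were chosen with earlier results of these data known. MARCHF6, of the breakdown list, was not analysed here, and 3 other genes of the further lists are not reported here and were left out of their counts. Related-list genes other than the members were given no overlap check. The alternatives are named in the closing section. The read recovery, the calls and the intervals were tested on simulated data. Promoters came from RefSeq (GRCh38.p14). The scripts ran in Python 3.11.15 (scipy 1.17.1, pandas 2.3.3, numpy 2.4.6), and plots were drawn in matplotlib 3.10.9.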

Additional observations from a re-analysis of the deposited data

How the results depend on the processing

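In hypoxia the 4 genes called higher stayed 4 with a pseudocount of 0.1 FPKM, without a filter, at 5 FPKM, in TPM and with summed rows. They were 6 when centred on the median gene and at a 1.5-fold rule, and 2 at 3-fold, where INSIG1 and STARD4 dropped out. The 0 called lower became 2 with a pseudocount of 0.1 FPKM and in TPM, and 6 at 1.5-fold. The median of the members, -0.07 as deposited, was -0.17 in TPM and turned to 0.28 when centred. With shALKBH5, SQLE was the 1 member called lower under every alternative run except 1.5-fold, which gave 4 lower and 3 higher. The median of -0.30 became -0.26 when centred on the median gene, and -0.175 without a filter and with a minimum of 50 reads. It was -0.13 with total reads, and turned to 0.071 in TPM, where all 31 genes passed the filter. The share of calls that were higher among all genes was 33.5% in hypoxia and 67.5% when centred, and 36.9% with shALKBH5 and 43.1% when centred. Leaving out a library was not possible with 1 per group. No paired analysis was possible because each group has 1 library. With no replicates, the spread between cultures is unknown, and for scarce members such as TM7SF2 (38 reads with shScr) counting error alone is wide.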
